A study of Mus musculus with 8 samples.

Results

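The genes described here are 10 marker genes of fat cells (adipocytes), measured in RNA of dissected thigh muscle: *Adipoq*, *Cfd*, *Lep*, *Retn*, *Plin1*, *Cidec*, *Lipe*, *Fabp4*, *Scd1* and *Pparg*. They were taken by name, and all array probes annotated with a mouse RefSeq transcript of these genes were used, which gave 13 of the 56605 probes on the array and 10 of the 22911 genes that its probes could be matched to by transcript. *Cfd*, *Retn* and *Fabp4* had 2 probes each and the other genes had 1. The mice were 3 Grsf1cKO and 3 WT males, all 17 months old, with no treatment named. In Grsf1cKO mice the Grsf1-LoxP allele, in which LoxP sites flank exons IV and V of the gene for the RNA-binding protein GRSF1, was combined with Myf5Cre. Grsf1tm1a was the parent allele, from which FLPo recombinase excised LacZ and Neo. The control mice are labeled wildtype, with no allele named. Myf5Cre is active in precursors of skeletal muscle and, as general background, it also marks precursors of brown fat and of part of the white fat, so the deletion need not be limited to muscle fibers. The sample labels name the vastus intermedius, while the methods name the rectus femoris, a neighboring muscle of the quadriceps.

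Adipocytes store triglyceride in a large lipid droplet and release fatty acids from it on demand. The nuclear receptor PPARγ, encoded by *Pparg*, drives their differentiation and many of their genes, among them those for droplet proteins and for secreted hormones called adipokines. Skeletal muscle holds adipocytes between its fibers and along its fascia, more of them with age, and a dissected muscle carries a variable amount of this fat. *Adipoq*, *Plin1*, *Cidec*, *Retn*, *Cfd* and *Lep* are transcribed mainly in adipocytes, whereas *Lipe*, *Scd1* and *Pparg* are also transcribed in muscle fibers and *Fabp4* also in capillary endothelium. Because whole muscle was measured, fewer fat cells and less RNA per fat cell cannot be told apart.

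The sequences just before the transcription start are shown for the pair of genes that varied most alike (*Adipoq* and *Cidec*), for the droplet gene *Plin1* and the regulator *Pparg*, which also varied together, and for *Lep*, which varied least with the rest. Each is the 250 bases before a start in RefSeq, build GRCm38.p6, written 5′ to 3′ on the strand of the gene. Capitals mark, on either strand, AGGTCA (the core of nuclear receptor sites), TTGCGCAA (a palindrome bound by C/EBP proteins), CCAAT and TATAAA. These motifs do not contain each other.
Adipoq, chr16:23146286-23146535, + strand: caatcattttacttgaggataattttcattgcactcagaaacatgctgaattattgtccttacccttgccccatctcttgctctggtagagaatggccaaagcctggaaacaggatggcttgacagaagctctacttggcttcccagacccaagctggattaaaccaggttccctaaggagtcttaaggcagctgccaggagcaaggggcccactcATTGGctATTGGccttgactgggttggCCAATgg
Cidec, chr6:113435761-113436010, - strand: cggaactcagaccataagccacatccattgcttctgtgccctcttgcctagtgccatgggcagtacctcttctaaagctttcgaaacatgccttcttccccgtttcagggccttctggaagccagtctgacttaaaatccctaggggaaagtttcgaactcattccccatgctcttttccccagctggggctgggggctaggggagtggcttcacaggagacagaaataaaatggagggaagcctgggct
Plin1, chr7:79732777-79733026, - strand: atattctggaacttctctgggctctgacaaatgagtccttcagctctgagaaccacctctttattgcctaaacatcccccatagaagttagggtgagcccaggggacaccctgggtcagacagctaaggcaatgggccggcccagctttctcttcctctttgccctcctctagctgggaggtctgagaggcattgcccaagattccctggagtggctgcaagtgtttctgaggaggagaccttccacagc
Pparg, chr6:115362099-115362348, + strand: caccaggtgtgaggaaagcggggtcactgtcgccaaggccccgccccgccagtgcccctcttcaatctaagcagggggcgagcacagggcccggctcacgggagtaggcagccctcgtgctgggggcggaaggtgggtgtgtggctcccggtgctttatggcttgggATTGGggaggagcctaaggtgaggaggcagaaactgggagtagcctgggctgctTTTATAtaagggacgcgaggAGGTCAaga
Lep, chr6:29059971-29060220, + strand: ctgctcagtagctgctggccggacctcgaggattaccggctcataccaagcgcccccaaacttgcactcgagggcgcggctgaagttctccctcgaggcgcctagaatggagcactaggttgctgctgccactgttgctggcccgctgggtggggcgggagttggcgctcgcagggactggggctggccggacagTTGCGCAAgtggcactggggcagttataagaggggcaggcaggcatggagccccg

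Of the 10 genes, 8 had an entry in the promoter table, with 12 starts between them, and *Fabp4* and *Scd1* had none. AGGTCA stood before 2 starts of *Pparg* and before no start of the other 7 genes, and 14.0% of all 32817 promoters of this length held it. TTGCGCAA stood only before *Lep*, 55 bases before its start, and 0.165% of all promoters held it. CCAAT occurred 3 times within 34 bases of the *Adipoq* start and also before 2 starts of *Pparg*, with a share of 33.8% over all promoters. TATAAA stood before 1 start of *Pparg*, 29 bases away, against 12.4% of all promoters. The printed *Cidec* and *Plin1* stretches held none of these letters, so the genes that varied most alike shared no motif of this set. A match or its absence describes the letters in this window.

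By the flag of the array software, the signal of all 13 marker probes was well above background on each of the 8 arrays, and none was saturated. WT 1 and Grsf1cKO 1 were each measured on a first and a repeat array, which were averaged to 1 value per mouse. Values are listed in the order of mice 1, 2 and 3 of each genotype. Between 66.3% and 73.1% of spots were well above background on 7 arrays, against 88.9% on the repeat array of Grsf1cKO 1, which stood apart, and leaving that array out changed no call or direction of a marker gene. The targeted gene *Grsf1* had log2 signals of 12.15, 12.02 and 12.08 in Grsf1cKO mice against 14.30, 14.25 and 14.27 in WT mice. The genotypes did not overlap, and *Grsf1* fell by 2.19 on the log2 scale (SE 0.081, limma adjusted *p* = 0.0033), in the direction that the labels give. WT 1 (first array) and WT 2 were on slide 1, and all other arrays, including the repeat of WT 1, were on slide 2, so Grsf1cKO mice were measured on slide 2 only.

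The first comparison asked whether fat marker transcripts differed between Grsf1cKO and WT muscle. No marker gene met the criteria used throughout, which are a false discovery rate below 0.2 in limma together with an unadjusted *p* below 0.01 and a more than 1.5-fold change. The count was 0 of 13 probes, against 0.00771% of the 38888 probes tested, and 0 of 13 also had an unadjusted *p* under 0.05, against 4.25% of all probes (1.29% higher and 2.96% lower in Grsf1cKO). A *z*-test, run as the difference over its standard error against the normal distribution with the same criteria, called 0 of 13 as well, against 0.975% of all probes. The genotypes overlapped for every marker probe, whereas they did not overlap for 9.35% of all probes. On average 7 genes were lower and 3 were higher in Grsf1cKO muscle, with a median difference of -0.13 on the log2 scale beside -0.03 over all probes tested, of which 57.5% were lower. The adjusted *p* of the 13 probes ran from 0.996 to 0.998, and the exact permutation *p* of the 10 genes from 0.4 to 1, where 0.1 is the smallest that 3 mice against 3 can give. Over the 13 probes the bounds of the 95% confidence intervals reached from -2.03 (*Cfd*) to 1.14 (*Cidec*), and the interval was narrowest for *Lep*.

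Among the secreted proteins, *Adipoq* (transcript NM_009605) encodes adiponectin, a hormone that circulates at high levels and raises insulin sensitivity. Its log2 signal was 13.10, 13.85 and 13.02 in Grsf1cKO mice against 13.64, 13.63 and 12.44 in WT mice. The highest mouse was Grsf1cKO 2 and the lowest was WT 3, with the other mice in between and the genotypes interleaved. The Grsf1cKO mean was 13.32 ± 0.46 (SD, n = 3), and the WT mean was 13.24 ± 0.69 (SD, n = 3). They differed by 0.08 (SE 0.399, 95% interval -0.89 to 1.06, limma adjusted *p* = 0.998), less than the spread within either genotype.

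*Cfd* (NM_013459) encodes adipsin, or complement factor D, a serine protease of the alternative complement pathway that fat releases in large amounts. Its brighter probe read 15.41, 15.20 and 14.79 in Grsf1cKO mice against 16.32, 16.61 and 14.60 in WT mice. WT 1 and WT 2 were above every Grsf1cKO mouse, and WT 3 was below every one of them. The mean was 15.13 ± 0.32 (SD, n = 3) against 15.84 ± 1.09 (SD, n = 3), a difference of -0.71 (SE 0.539, 95% interval -2.03 to 0.61, limma adjusted *p* = 0.996, exact permutation *p* = 0.4). The other *Cfd* probe gave 14.81, 14.59 and 14.21 against 15.68, 15.998 and 13.97, in the same order of mice, with a difference of -0.68. *Cfd* was the only marker gene with a difference over 1.5-fold, 1.63-fold lower on the mean for the brighter probe, while 2.23% of all probes were lower and 1.9% higher by that much. Without WT 3 the *Cfd* difference was -1.33 (adjusted *p* = 0.953), and without WT 2 it was -0.33.

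*Lep* (NM_008493) encodes leptin, the hormone that reports the size of fat stores to the brain. It read 8.87, 9.15 and 8.98 in Grsf1cKO mice against 8.95, 9.45 and 9.09 in WT mice, a difference of -0.16 (SE 0.157, 95% interval -0.54 to 0.23). WT 2 was the highest mouse and Grsf1cKO 1 the lowest, and WT 3, the lowest mouse for most markers, was in the middle. *Retn* (NM_001204959) encodes resistin, an adipokine of rodent fat. Its brighter probe read 11.47, 12.09 and 11.02 against 12.06, 11.89 and 11.06, and its other probe 11.40, 12.06 and 10.94 against 12.13, 11.85 and 10.92. Mouse 3 of either genotype was low and the other mice were higher, so that the difference of -0.14 (SE 0.366) was smaller than the range of about 1 within each genotype.

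Among the proteins of the lipid droplet, *Plin1* (NM_175640) encodes perilipin 1, which coats the droplet and holds back lipolysis until it is phosphorylated. Its log2 signals were 9.67, 10.06 and 9.37 in Grsf1cKO mice against 10.77, 10.02 and 8.997 in WT mice. WT 1 was the highest mouse and WT 3 the lowest, 3.42-fold apart, and the Grsf1cKO mice lay between them. The genotype difference was -0.23 (SE 0.456, 95% interval -1.35 to 0.89). *Cidec* (NM_178373) encodes a protein that lets small droplets pass their lipid to larger ones. It read 13.74, 14.69 and 13.67 against 14.58, 14.32 and 13.14, with the same highest and lowest mouse as *Adipoq*. The difference was 0.02 (SE 0.456, 95% interval -1.09 to 1.14), the smallest of the 10 genes, although single mice lay 2.93-fold apart.

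*Lipe* (NM_010719) encodes hormone-sensitive lipase, which cleaves diacylglycerol. Its signals were 8.38, 8.89 and 8.34 in Grsf1cKO mice against 8.23, 8.72 and 8.24 in WT mice. Mouse 2 was highest in each genotype, and WT 1, which was high for most markers, was as low as WT 3. The difference was 0.14 (SE 0.209, 95% interval -0.37 to 0.65).

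Of the genes for lipid handling, *Fabp4* (NM_024406) encodes the fatty acid carrier of adipocyte cytoplasm. Its brighter probe read 16.48, 16.71 and 16.40 in Grsf1cKO mice against 16.90, 16.80 and 16.22 in WT mice, and the other probe read 13.70, 13.98 and 13.66 against 14.05, 13.97 and 13.49. WT 3 was the lowest and WT 1 the highest mouse with either probe, and the differences were -0.11 (SE 0.203) and -0.06 (SE 0.181). *Scd1* (NM_009127) encodes stearoyl-CoA desaturase, which makes monounsaturated fatty acids. It read 13.46, 13.36 and 12.50 against 14.72, 13.49 and 12.71. The signal of WT 1 stood above all other mice by over 1 on the log2 scale, and the lowest mouse was Grsf1cKO 3. The difference of -0.53 (SE 0.545, 95% interval -1.86 to 0.80) rested on that mouse, since it was 0.0094 without WT 1.

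The transcription factor gene *Pparg* (NM_011146) read 11.74, 11.98 and 11.52 in Grsf1cKO mice against 12.22, 11.98 and 11.40 in WT mice. WT 1 was highest and WT 3 lowest, as for *Fabp4*, and Grsf1cKO 2 and WT 2 had nearly the same signal. The difference was -0.12 (SE 0.238, 95% interval -0.70 to 0.46).

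**Figure D1:**
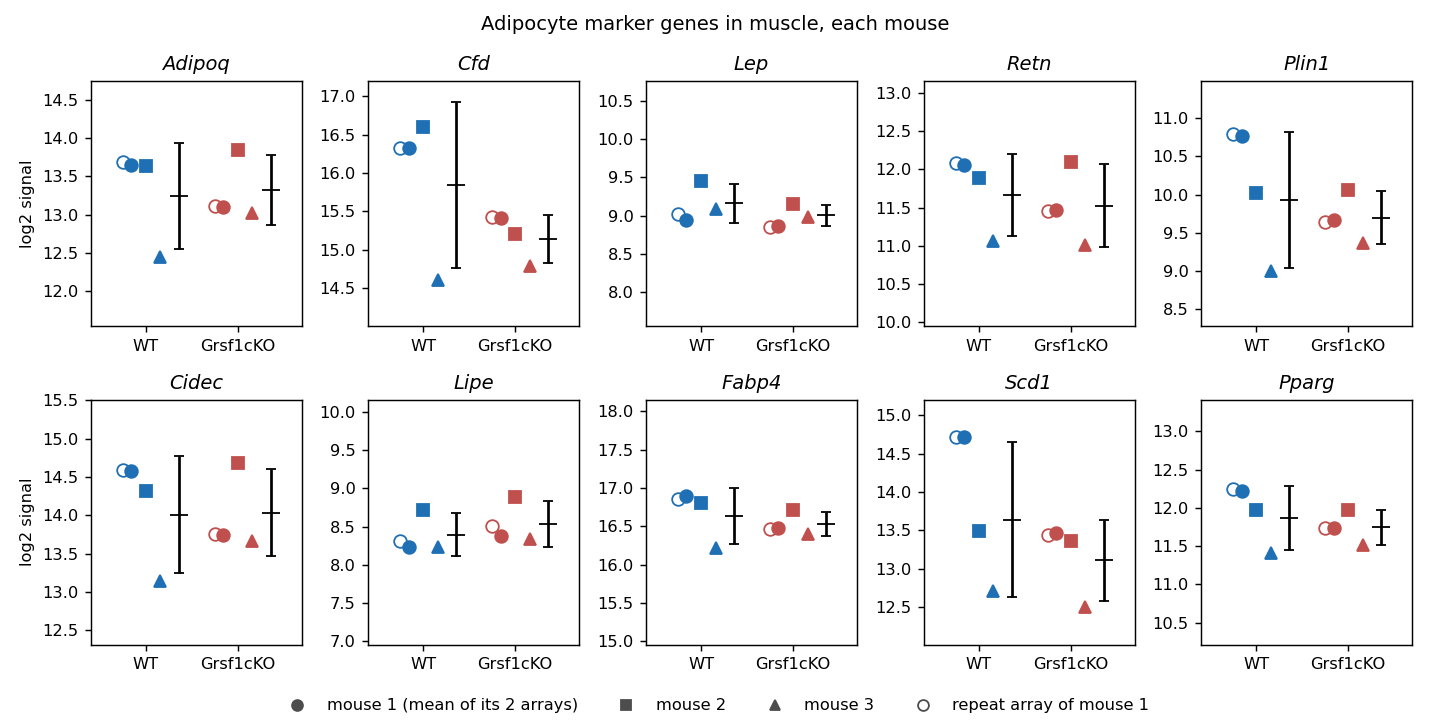
Log2 signal of the brightest probe of each marker gene (vertical axis, 1 panel per gene, all panels with the same height in log2 units) in WT (blue) and Grsf1cKO (red) muscle. Filled points are mice, open circles the repeat array of mouse 1, and bars the mean ± SD of 3 mice; the genotypes overlap in all 10 panels, and WT 3 is the lowest mouse in 6 of them.

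**Figure D2:**
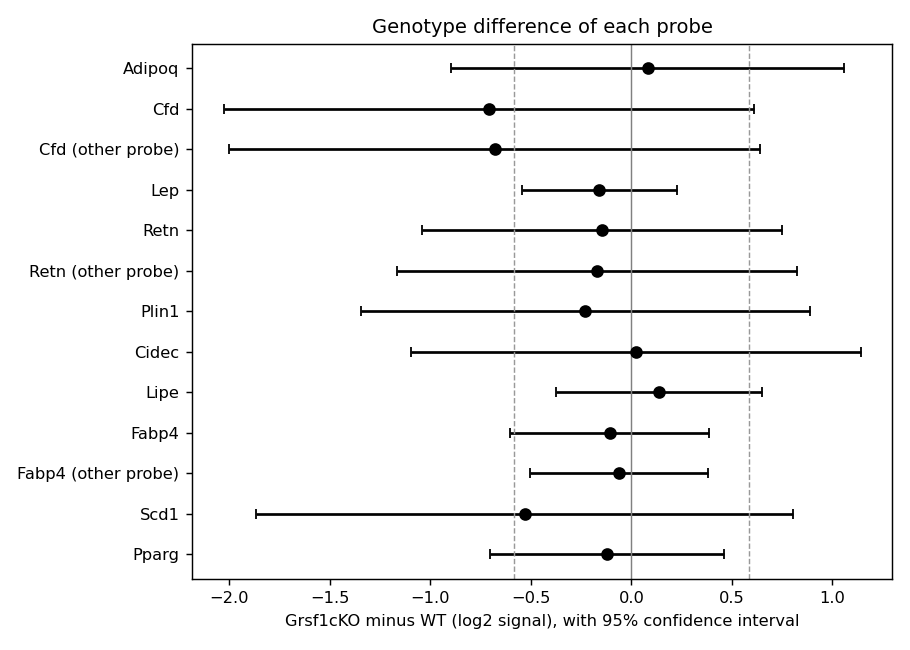
Difference between Grsf1cKO and WT means (horizontal axis, log2 signal) for each of the 13 probes, with its 95% confidence interval from limma. Dashed lines mark a fold change of 1.5, and all 13 intervals include 0.

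The slide touches these differences, because 2 of the 3 WT mice had a first array on slide 1. WT 1 was measured on both slides, and its values differed by at most 0.162 on the log2 scale over the 13 probes, with a median of 0.048. For Grsf1cKO 1, whose arrays were both on slide 2, the corresponding values were 0.252 and 0.027. With slide 2 arrays alone, the differences were 0.26 for *Adipoq*, -0.33 for *Cfd*, -0.20 for *Plin1* and -0.61 for *Scd1*, with a median of -0.05 over the 10 genes. With slide as a block on the first arrays, the genotype contrast compares the Grsf1cKO mice with WT 3 alone. *Adipoq* then differed by 0.87 and *Cidec* by 0.89, each past 1.5-fold but with a limma adjusted *p* of 0.9999, and the median was 0.44, with 9 of the 10 genes higher in Grsf1cKO and 0 of 13 probes called. Over all 39243 probes of that fit, the median was -0.017 and 0.0127% were called. Slide 1 held WT mice only and gave no within-slide difference.

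The second comparison set the genotype difference against the spread between mice of the same genotype. All 10 differences were smaller than the pooled SD within genotypes. That SD was large for most of these genes, with a median of 0.563 (range 0.208 to 0.810), while over all tested probes the quartiles were 0.109, 0.181 and 0.309. Of the 10 genes, 10 lay above the median of all probes, 7 above the upper quartile and 6 above the 90th percentile of 0.494, which 10.0% of all probes exceed. The 6 were *Scd1* (0.810), *Cfd* (0.801), *Plin1* (0.676), *Cidec* (0.676), *Adipoq* (0.588) and *Retn* (0.537). The lowest values belonged to *Lep* (0.208), *Fabp4* (0.283), *Lipe* (0.294) and *Pparg* (0.339). The spread was wider among WT mice for 8 of the 10 genes, with a median SD of 0.614 against 0.331 in Grsf1cKO mice, a contrast that was not tested. Without WT 3 the median pooled SD of the 10 genes was 0.326.

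The mice were also set side by side over all markers. Averaged over the 10 genes, the deviation of a mouse from each gene's mean was -0.12, 0.25 and -0.39 in Grsf1cKO mice against 0.49, 0.34 and -0.56 in WT mice. WT mice thus held both ends of the range, and the genotype means of -0.088 ± 0.320 (SD, n = 3) and 0.088 ± 0.569 (SD, n = 3) lay well within it. WT 3 was the lowest of the 6 mice for 6 genes, beside 13.7% of all probes, and Grsf1cKO 3 was the lowest of its genotype for 9 genes. Grsf1cKO 2 was the highest of its genotype for 8. The highest of all mice was WT 1 for 4 genes, beside 20.6% of all probes, Grsf1cKO 2 for 4 and WT 2 for 2. No share over all probes is given for the counts of Grsf1cKO 3, Grsf1cKO 2 and WT 2. Genes that vary together do not add separate counts. The linear signals summed over the 10 genes were 176548, 206870 and 148482 in Grsf1cKO mice against 279596, 268626 and 128380 in WT mice, a 2.18-fold range from WT 3 to WT 1. This sum is carried mainly by the brightest probes.

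**Figure D3:**
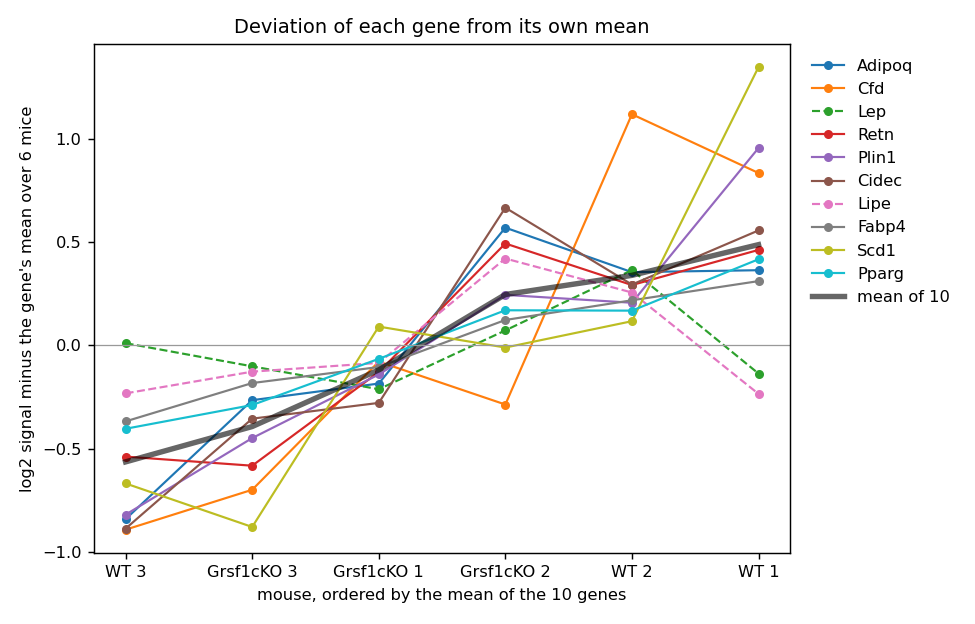
Log2 signal of each marker gene minus its mean over 6 mice (vertical axis), for each mouse in the order of the 10-gene mean (thick line). The mean runs from -0.56 in WT 3 to 0.49 in WT 1, and *Lep* and *Lipe* (dashed) depart from it in WT 1.

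The third comparison asked whether the markers varied together, with *Adipoq* as the reference because it is transcribed almost only in adipocytes. Over the 6 mice *Cidec* followed *Adipoq* most closely, with Pearson's *r* = 0.988 and Spearman's rho = 1. The exact permutation *p* for *r* was 0.00139, the smallest that 6 mice can give, and 0.0125 after Benjamini-Hochberg adjustment over the 9 relations. *Fabp4* (*r* = 0.927, rho = 0.829), *Retn* (*r* = 0.920, rho = 0.943), *Pparg* (*r* = 0.898, rho = 0.943) and *Plin1* (*r* = 0.855, rho = 0.943) came next. Their exact permutation *p* was 0.0181, 0.00694, 0.0181 and 0.025, or 0.0406, 0.0313, 0.0406 and 0.045 after adjustment. The adjusted exact *p* of rho was 0.025 for *Cidec*, 0.0375 for *Retn*, *Pparg* and *Plin1*, and 0.105 for *Fabp4*. So 5 of the 9 genes passed an adjusted *p* of 0.05 by *r*, and 4 of these by rho. No share over all genes is given for this test. Among the 5705 named genes outside the set with a range of at least 0.705, 1.07% had *r* above 0.9 with *Adipoq*. That threshold is not the adjusted *p*, so this is no share to set beside the 5 genes. Of the 9, *Cidec*, *Fabp4* and *Retn* had *r* above 0.9. The ranges of *Fabp4* (0.678), *Lep* (0.576) and *Lipe* (0.655) were below 0.705.

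The other 4 relations did not pass by either measure. For *Cfd* *r* was 0.691 (rho 0.6), for *Lipe* 0.677 (rho 0.429) and for *Scd1* 0.632 (rho 0.6), with an adjusted exact permutation *p* of 0.181 for each *r* and of 0.311, 0.472 and 0.311 for the rho values. *Lep* followed *Adipoq* least, with *r* = 0.327 (rho 0.2) and an adjusted exact permutation *p* of 0.531. Without Grsf1cKO 2 and WT 3, the mice farthest from the *Adipoq* median, *r* was 0.973 for *Cidec*, 0.989 for *Fabp4*, 0.942 for *Retn*, 0.922 for *Pparg* and 0.859 for *Plin1*. It was 0.966 for *Cfd*, 0.758 for *Scd1*, 0.570 for *Lep* and 0.313 for *Lipe*, whose *r* was 0.677 over all mice. These values are over 4 mice and were not tested, so they do not show on which mice a relation rests. With the genotype means taken out, *r* ranged from 0.894 to 0.990 for the 5 genes that passed and from 0.402 to 0.834 for the others. Without WT 2, the mouse measured on slide 1 alone, the median *r* of the 9 genes with *Adipoq* was 0.860, beside 0.855 over all mice. Slide 1 held 2 mice and gave no value.

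Over all 45 pairs of the 10 genes, described here with no test, the median *r* was 0.773, with 43 pairs above 0 and 21 above 0.8. Besides *Adipoq* and *Cidec*, the closest pairs were *Plin1* and *Pparg* (0.985), *Fabp4* and *Pparg* (0.978) and *Plin1* and *Fabp4* (0.958). The lowest were *Lep* and *Scd1* (-0.098) and *Lipe* and *Scd1* (-0.029). *Lep* and *Lipe* had the lowest *r* with most other genes, and *r* was 0.653 between them. *Lipe* followed *Adipoq* (0.677) more closely than *Scd1* did (0.632). *Lep* and *Lipe* were also the dimmest markers, with the narrowest ranges over the mice (0.576 and 0.655). Their first and repeat arrays differed by up to 0.141 and 0.252, and the part of this in their low *r* was not tested. Over the 28 pairs without these genes, *r* ran from 0.632 to 0.988 with a median of 0.899. Leaving genes out for their low *r* by itself raises that median. With genotype means taken out, the median over the 45 pairs was 0.817. These values are over 6 mice, and all 10 genes were read on the same arrays with the same normalization.

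**Figure D4:**
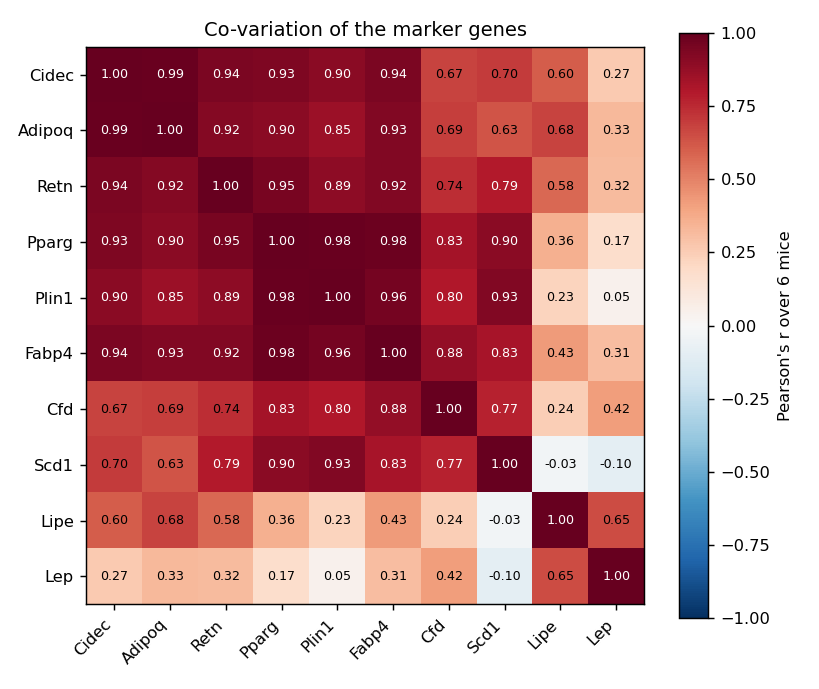
Pearson's *r* over 6 mice for each pair of marker genes (rows and columns, color scale from -1 to 1). A block of *Cidec*, *Adipoq*, *Retn*, *Pparg*, *Plin1* and *Fabp4* has *r* of at least 0.85 in every pair, and *Lep* and *Lipe* have the lowest values.

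Genes outside the marker set were ranked by Pearson's *r* with *Adipoq* over the 6 mice, among 5705 named genes whose range over the mice was at least 0.705 on the log2 scale, 50% of that of *Adipoq*. Of these, 61 (1.07%) had *r* above 0.9. The 10 closest were *Orm2* (0.999), *Tmem25* (0.989), *Slc7a10* (0.988), *Orm1* (0.986), *Serpina3c* (0.981), *Pts* (0.976), *Gm15401* (0.972), *Pck1* (0.971), *Ccndbp1* (0.969) and *Sncg* (0.966). They were picked on these mice, so no *p* is given, and no differences between neighbors in this order were tested. *Orm1* and *Orm2* encode orosomucoids, acute-phase plasma proteins, *Slc7a10* a neutral amino acid transporter, *Pck1* cytosolic phosphoenolpyruvate carboxykinase and *Sncg* gamma-synuclein. *Orm2* read 6.93, 7.78 and 6.76 in Grsf1cKO mice against 7.57, 7.54 and 6.14 in WT mice. *Pck1* read 11.57, 12.41 and 11.42 against 12.58, 12.39 and 10.93. *Tmem25*, with the widest range of the 10, read 11.55, 12.42 and 11.37 against 12.09, 12.31 and 10.38. In each of these 3 genes WT 3 was the lowest mouse, and none of the 10 differed by over 0.19 on the log2 scale between genotypes.

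**Figure D5:**
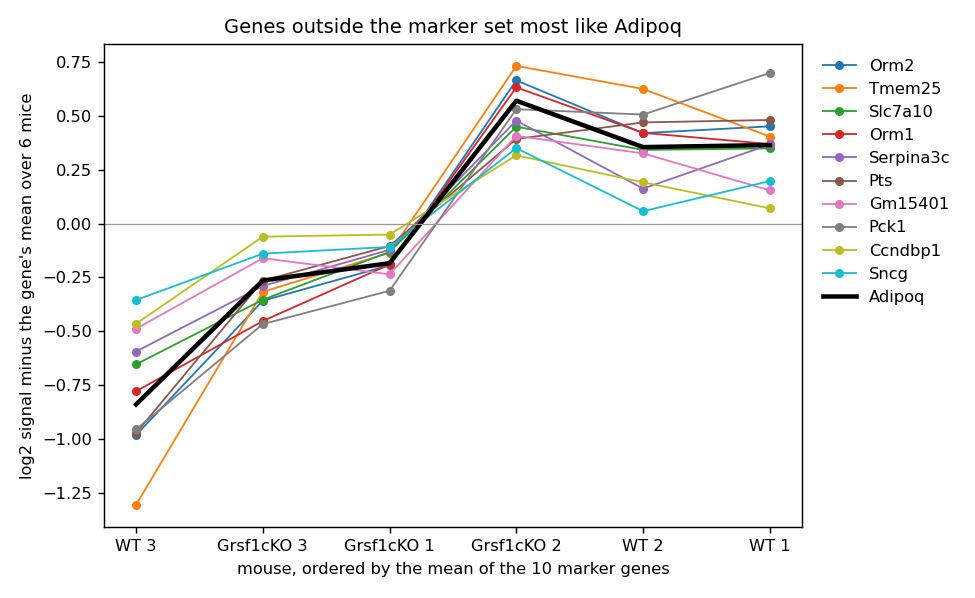
Log2 signal minus the gene's mean over 6 mice (vertical axis) for *Adipoq* (thick black line) and the 10 genes outside the marker set with the highest *r*, by mouse. WT 3 is the lowest mouse and Grsf1cKO 2, WT 2 and WT 1 are above the mean for all 11 genes, which is what the ranking selects for.

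Genes with related roles were described in lists. Of 20 other white adipocyte genes, 0 had an unadjusted *p* under 0.05 in limma, 7 were higher and 13 lower in Grsf1cKO muscle, and the median difference was -0.02. As with the markers, the spread was large, with a median pooled SD of 0.601 and 12 of 20 above the 90th percentile of all probes. Their mean deviation was -0.07, 0.33 and -0.40 in Grsf1cKO mice against 0.55, 0.10 and -0.52 in WT mice, again with WT 3 and Grsf1cKO 3 low and WT 1 high. The largest difference belonged to *Adrb3*, the β3-adrenergic receptor of fat, at -0.61 (SE 0.57), with 8.85, 8.77 and 7.75 against 9.99, 9.24 and 7.97. *Lgals12* (-0.50), *Acvr1c* (-0.35) and *Npr3* (0.34) came next, and no gene of the list met the criteria. *Slc7a10*, *Orm1*, *Pck1* and *Sncg* of this list are also among the 10 genes most like *Adipoq*. The list did not follow *Adipoq* as a whole, since *r* with it ran from -0.41 (*Agt*) to 0.988 (*Slc7a10*). It was 0.08 for *Aqp7* and 0.09 for both *Car3* and *Gpd1*. WT 3 was the lowest mouse for 11 of the 20 genes, beside 13.7% of all probes.

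The median spread was smaller in the other lists of lipid genes, though not for every gene in them. Of 12 adipogenic transcription factors, 0 had an unadjusted *p* under 0.05, 2 were higher and 10 lower, with a median difference of -0.08 and a median pooled SD of 0.156. *Cebpa*, which encodes a partner of PPARγ in adipocyte differentiation, had 9.33, 9.97 and 9.55 against 10.03, 9.98 and 9.08. WT 3 was again the lowest mouse, and the difference was -0.08 (SE 0.30). WT 3 was the lowest for 4 of the 12 genes, beside 13.7% of all probes. In this list *r* with *Adipoq* ran from -0.56 (*Ebf2*) to 0.955 (*Cebpa*). The largest differences were those of *Zfp423* (-0.15), *Prdm16* (-0.14), *Rxra* (-0.13) and *Cebpd* (0.13). Genotypes did not overlap for *Rxra*, 1 gene of 12, a share near the 9.35% of all probes. Of 14 genes for lipolysis and droplets outside the marker set, 0 had an unadjusted *p* under 0.05, with 4 higher, 10 lower, a median of -0.04 and a median pooled SD of 0.143. *G0s2* (-0.27), which encodes an inhibitor of adipose triglyceride lipase, *Plin3* (-0.20), *Plin5* (-0.17) and *Lpl* (-0.16) had the largest differences. Of 5 adipokine receptors and partners, 0 had an unadjusted *p* under 0.05, with 1 higher, 4 lower and a median of -0.07. The adiponectin receptors *Adipor1* and *Adipor2* differed by -0.03 and -0.07, the adiponectin-binding cadherin gene *Cdh13* by 0.13, the leptin receptor gene *Lepr* by -0.20 and *Cap1* by -0.21.

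Of 15 genes for fatty acid and triglyceride synthesis, 4 were higher and 11 lower in Grsf1cKO muscle, with a median of -0.12. Their median pooled SD was 0.241, and 4 of the 15 lay above the 90th percentile of all probes, with *Fasn* at 0.840. Only *Mlxipl*, which encodes the carbohydrate-responsive transcription factor ChREBP, had an unadjusted *p* under 0.05 in limma, against 2.96% of all probes in that direction. It read 14.30, 14.39 and 14.21 in Grsf1cKO mice against 14.73, 14.66 and 14.51 in WT mice. The difference of -0.33 (SE 0.10) had a limma adjusted *p* of 0.996. *Mlxipl* and *Lpin1* were the 2 of 15 genes whose genotypes did not overlap, beside 9.35% of all probes, and *Lpin1* was separated narrowly, with 14.31, 14.31 and 13.86 against 14.33, 14.52 and 14.34. WT 1 was the highest mouse for 10 of the 15 genes, beside 20.6% of all probes, as it was for *Scd1*. *Fasn*, the gene for fatty acid synthase, read 14.15, 13.79 and 13.13 against 15.35, 14.27 and 13.21, and *Elovl6* read 8.51, 8.17 and 8.004 against 9.40, 8.21 and 8.18. In both genes WT 1 stood above the other mice by about 1, and their differences were -0.58 (SE 0.56) and -0.37 (SE 0.36).

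Markers of other cell types were read on the same mice, and no gene of these lists met the criteria or had an unadjusted *p* under 0.05. All 9 markers of muscle fibers exceeded background on each array and lay at the top of the signal range, where quantile normalization gives all arrays the same set of highest values. Of the 9, 8 were higher and 1 lower in Grsf1cKO muscle, with a median difference of 0.02. Genotypes did not overlap for *Myh2* and *Myh4*, beside 9.35% of all probes. The myosin gene *Myh2* (0.19), *Ckm* (0.13), *Mb* (0.06) and *Myh4* (-0.05) differed most. The signal summed over all 9 fiber markers ran from 3122130 to 3236610 in Grsf1cKO and from 3102490 to 3118390 in WT mice. Red blood cell markers varied across mice much as the fat markers did. Their mean deviation was -0.22, 0.26 and -0.24 in Grsf1cKO mice against 0.20, 0.49 and -0.50 in WT mice, and WT 3 was lowest for 3 of 3 genes. *Hba-a1* read 17.80, 17.99 and 17.62 against 18.01, 18.11 and 17.34. Pearson's *r* with *Adipoq* was 0.955 for *Hba-a1*, 0.895 for *Hbb-bt* and 0.879 for *Alas2*. *Hbb-bt* differed by -0.23 and *Alas2* by -0.14, and the summed signal of the 3 genes ran from 261688 to 343342 in Grsf1cKO and from 216122 to 385613 in WT mice. The part of blood or of dissection in the spread of the fat markers was not tested.

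Of the 4 brown adipocyte markers tested, 3 were highest in WT 1. *Ucp1*, the uncoupling protein gene that defines brown fat, was at 10.45 and 10.51 on the arrays of WT 1, at 7.19 in Grsf1cKO 2 and at 5.28 in WT 2. It was not well above background in Grsf1cKO 3, in WT 3 and on the first array of Grsf1cKO 1. WT 1 was thus far above every other mouse, and no genotype difference is given for this gene. *Cidea* was likewise highest in WT 1, at 10.07, 10.78 and 11.002 against 11.69, 10.15 and 9.60, and *Zic1* at 10.34, 10.78 and 10.27 against 11.12, 10.55 and 10.02. *Dio2* went another way, with 7.97, 7.75 and 8.73 against 7.93, 7.91 and 8.11 and Grsf1cKO 3 highest, and *Elovl3* was well above background on 3 arrays and was not tested. The summed signal of the 4 tested genes was 2635 to 3882 in Grsf1cKO and 2116 to 7198 in WT mice, and its part in the high marker levels of WT 1 was not tested.

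Among 7 markers of fibro-adipogenic progenitors, the cells from which muscle fat arises, 3 were higher and 4 lower in Grsf1cKO muscle, with a median of -0.09. *Pdgfra*, their defining receptor, read 12.25, 12.38 and 12.28 against 12.37, 12.35 and 12.14. Its *r* with *Adipoq* was 0.982, while the rest of the list ran from 0.115 (*Pi16*) to 0.324 (*Cd34*). WT 3 was the lowest mouse for *Pdgfra*, within a range of 0.24, but for 1 of the 7 genes in all. WT 1 was the highest mouse for 5 of the 7, beside 20.6% of all probes. *Pi16* (-0.23), *Dlk1* (-0.21), *Dpp4* (-0.15) and *Cd34* (-0.09) had the largest differences. Of 6 macrophage markers 5 were higher in Grsf1cKO muscle, with a median of 0.11, and Grsf1cKO 3 was the highest mouse for 5. *Cd68*, a lysosomal protein gene of macrophages, read 11.80, 11.96 and 13.30 against 11.65, 11.85 and 11.57. The single mouse Grsf1cKO 3, which was low in fat markers, stood out in the *Cd68* difference of 0.66 (SE 0.40). *Adgre1* differed by 0.19, *Cd163* by 0.14 and *Itgam* by -0.13, and the summed signal of the list ran from 53929 to 70860 in Grsf1cKO and from 55349 to 64678 in WT mice. The median was -0.08 over 6 endothelial genes, led by *Kdr* and *Emcn* (-0.12 each), *Tek* (-0.09) and *Pecam1* (0.08). It was -0.04 over 4 smooth muscle genes, led by *Acta2* (0.14), *Myh11* (-0.13) and *Cnn1* (-0.09).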

How the data were processed

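Cy3-labeled RNA from the muscle of 6 mice was measured on Agilent arrays of 1 color. The authors deposited spot intensities from Feature Extraction (version 12.0.3.1, per the submitters' processing notes) and a table of scores, which are *z*-scores of the log2 processed signal over the spots of each array (scores computed that way equaled the deposited ones within 0.005) and served as an alternative. The processed signal is already background-subtracted. Control spots were left out, outlier spots set to missing, the 8 arrays quantile normalized together, and log2 signals averaged by probe and then by mouse. The filter kept probes detected above background in 3 or more mice and with a value in 2 or more mice per genotype. Genotype was the sole term of a limma fit (version 3.58.1, R 4.3.3), with Benjamini-Hochberg adjustment over 38888 probes. Where a gene had several probes the brightest was used for the gene. The methods name a *z*-test without its formula, and the *z*-test used here is a reading of it. Correlations were tested by exact permutation of the 6 mice.

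The members and lists were chosen with earlier results of these data known. Named genes are the members, *Grsf1*, the 10 genes most like *Adipoq*, and in each list those with an unadjusted *p* under 0.05 or else up to 4 with the largest difference. *Cebpa*, *Lpin1*, *Fasn*, *Elovl6*, *Adipor1* and *Pdgfra* fall outside this rule and were named after their values were seen. Gene names come from RefSeq transcripts of GRCm38.p6, while the array files name mm9, so no gene position is given beyond the RefSeq promoter stretches, which carry their own build. The promoter stretch was kept to 250 bases before the start. The number of arrays limits the precision. In simulated data (38888 probes, of which 200 were changed), limma recovered 57.5% of log2 changes of 1, with 33 false calls, and 91.5% of log2 changes of 2, with 40 false calls. These rates are over all simulated probes and need not hold for the markers. The median pooled SD of the marker genes was 0.563, against a median of 0.181 over all tested probes. The result of 1 fixed marker list is not reported here.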

Additional observations from a re-analysis of the deposited data

How the results depend on the processing

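Over 19 alternatives (normalization, background correction, deposited *z*-scores, use of the repeat arrays, detection filter, slide, replicate block, intensity trend, a *z*-test, each mouse left out, and the repeat array of Grsf1cKO 1 left out, which was chosen after seeing the data), 0 of the 13 marker probes met the criteria. Of 247 values, 220 kept their direction and side of the threshold and 27 changed sign without passing it. The slide block on first arrays, which by construction compares the Grsf1cKO mice with WT 3, turned *Cfd* to 0.53 (other probe 0.58), *Retn* to 0.47 (0.54), *Plin1* to 0.71, *Fabp4* to 0.32 (0.29), *Scd1* to 0.41 and *Pparg* to 0.34, and the median to 0.44, and it moved *Adipoq* from 0.08 to 0.87 and *Cidec* from 0.02 to 0.89. *Fabp4* was 0.0071 with the deposited *z*-scores, and its other probe 0.0015 on slide 2 alone.

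Without 1 mouse at a time, the differences ran from -0.32 to 0.28 for *Adipoq*, -1.33 to -0.33 for *Cfd* (other probe -1.30 to -0.29), -0.27 to -0.02 for *Lep*, -0.45 to 0.11 for *Retn* (-0.53 to 0.093), -0.70 to 0.19 for *Plin1*, -0.41 to 0.31 for *Cidec*, -0.036 to 0.30 for *Lipe*, -0.32 to 0.020 for *Fabp4* (-0.23 to 0.047), -0.997 to 0.0094 for *Scd1* and -0.35 to 0.056 for *Pparg*. The median difference ran from -0.38 to 0.05, the median pooled SD from 0.326 (without WT 3) to 0.657, the median *r* with *Adipoq* from 0.732 to 0.954, and *Grsf1* from -2.22 to -2.16. The replicate block gave *Grsf1* -2.19 with a limma adjusted *p* of 0.25 and left the marker differences at their values, with the lowest adjusted *p* at 0.822 (*Cfd*). Same-numbered mice correlated at 0.232, 0.097 and 0.104, so the numbers were not taken to pair them, although each mouse correlated best with its own number. Over all 38888 probes, 3 met the criteria, against 1 with the replicate block, 5 with the slide block over 39243 probes, 2 on slide 2 alone or without WT 1 or WT 3, and 379 by the *z*-test as run here, without the *z*-ratio, mean expression and ANOVA filters that the methods name. The cause of these changes was not tested, and 3 mice per genotype limit the precision.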
